A study of Rattus norvegicus with 2 samples.

Results

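The genes described are 30 genes of cholesterol synthesis, its regulation, and sterol transport and efflux, chosen by name from a list written for this account. Their RNA was measured on 2 single-colour Agilent arrays of rat arterial tissue from within the skull. One array held RNA of untreated intracranial arterial wall and the other RNA of an aneurysm lesion collected 3 weeks after induction, so each group is 1 array. The labels state neither strain, age nor the number of animals per RNA, nor how the aneurysm was induced. Array probes were named through their RefSeq accession: 29 of the 30 genes had a matched probe, out of 15159 genes matched on the array, and Srebf1 had none. A signal well above background was present on both arrays for 28 of the 29 genes and on the aneurysm array alone for Soat1. Stard4 and Fdps had 2 probes each, and the brighter one stands for the gene unless stated.

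Cells make cholesterol from acetyl-CoA through the mevalonate pathway, which ends at farnesyl pyrophosphate, and then through squalene and a series of sterol intermediates. The pathway is set mainly by the SREBP transcription factors, which Scap escorts out of the endoplasmic reticulum when sterols are scarce and which the Insig proteins hold back when sterols are plentiful. When sterols accumulate, oxysterols activate the liver X receptors, which switch on the efflux pumps Abca1 and Abcg1. In arteries this balance is best known from lipid-laden macrophages of atherosclerotic plaque, while liver and myelinating oligodendrocytes are tissues with heavy cholesterol synthesis.

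Values are log2 processed spot intensities minus the array's 75th percentile, so that a level of 0 is the 75th percentile of that array's non-control spots, and levels are not compared between genes. Differences are aneurysm minus control on the log2 scale, and ± gives the spot error, which comes from repeat spots within an array and leaves out any variation between animals. With 1 array per group there is no replicate check and no test, no p-value is given, and the number of arrays limits the precision. A difference is set instead against the 11902 genes of the array that had one. A spread of repeat spots is small beside the gap between these arrays: 21.0% of the 11902 genes were higher in the aneurysm library by over 2 spot errors and 21.8% lower.

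No spot was saturated on either array, and 74.7% (control) and 76.4% (aneurysm) of the spots for rat transcripts passed the flag for a signal well above background. All 6 smooth muscle markers listed for the wall, among them Acta2 and Myh11, and 5 of 5 matched endothelial markers had such a signal on both arrays. The control library also held more RNA of genes typical of other tissues. All 8 measured hepatocyte markers were lower in the aneurysm library (median difference -4.90), and their summed level was 22.1 times the array's 75th percentile in the control but 0.633 times that percentile in the aneurysm library. All 10 oligodendrocyte markers were lower as well (median -1.13), with summed levels of 168 and 85.6. Both of these cell types make cholesterol. The marker sums are set mostly by the brightest gene of each list in the control, Alb and Mbp. These values stand beside every result below, and their part in the results was not tested. In tissue RNA, fewer cells of a type and less RNA per cell cannot be told apart.

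Cholesterol genes differed little between the aneurysm and the control wall. None of the 29 genes reached 1.5-fold in either direction. Of all measured genes, 4.25% were at least 1.5-fold higher and 8.43% at least 1.5-fold lower. At 2-fold these shares were 0.882% and 3.91%. With only probes well above background on both arrays, as for 28 of the 29 genes, the 1.5-fold shares were 3.00% and 6.23%. At such shares a count of 0 among 29 genes does not set them apart. The differences ran from -0.51 for Acaca to 0.32 for Stard4. Small differences leaned downward: 20 of the 29 genes had a negative value, against 49.8% of all measured genes, and 9 a positive one, against 50.2%, and their median was -0.07 against 0.001 for all genes. By over 2 spot errors, 13 genes were lower and 2 higher, against 21.8% and 21.0% of all measured genes. The spot error depends on signal and had a median of 0.06 among the members. Bright genes pass 2 spot errors more easily, and these shares were not matched for signal.

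The single spots are the values behind these counts and add no separate evidence of the lean. Of 27 genes with at least 2 spots per array and a signal well above background on both, 17 had every aneurysm spot below every control spot, where 32.9% of 9134 comparable genes did. In 4 of them, Stard4, Insig1, Insig2 and Sc5d, every aneurysm spot lay above every control spot, where 35.1% of comparable genes did. In the other 6, which were Pmvk, Sqle, Msmo1, Nsdhl, Hsd17b7 and Abcg1, the spots overlapped. The 17 include Idi1, Abca1 and Nr1h2, whose differences were near or below their spot error. The shares of comparable genes were not matched for signal either.

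The signs depend on what is taken as no change. Scaling the arrays to their spike-in probes adds 0.27 to every member difference and moves the median of all genes to 0.27. On that scale 3 of the 29 genes, Hmgcs1, Mvd and Acaca, were below 0, against 20.1% of all genes. Of the 29, 1 gene, Stard4, was at least 1.5-fold higher on that scale, where 14.2% of all genes were. Relative to the median of all genes, 20 genes were lower and 9 higher with either scaling. The lean was smaller with normexp background correction, where 17 genes lay below that median and 11 above, and without a filter on dim probes, where 17 lay below and 12 above. With normexp on raw spot signals it was 16 below and 12 above, and 19 of 28 genes were then below 0 where 63.1% of all genes were. Signs below are on the 75th percentile scale, on which the median gene is near 0.

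**Figure D1:**
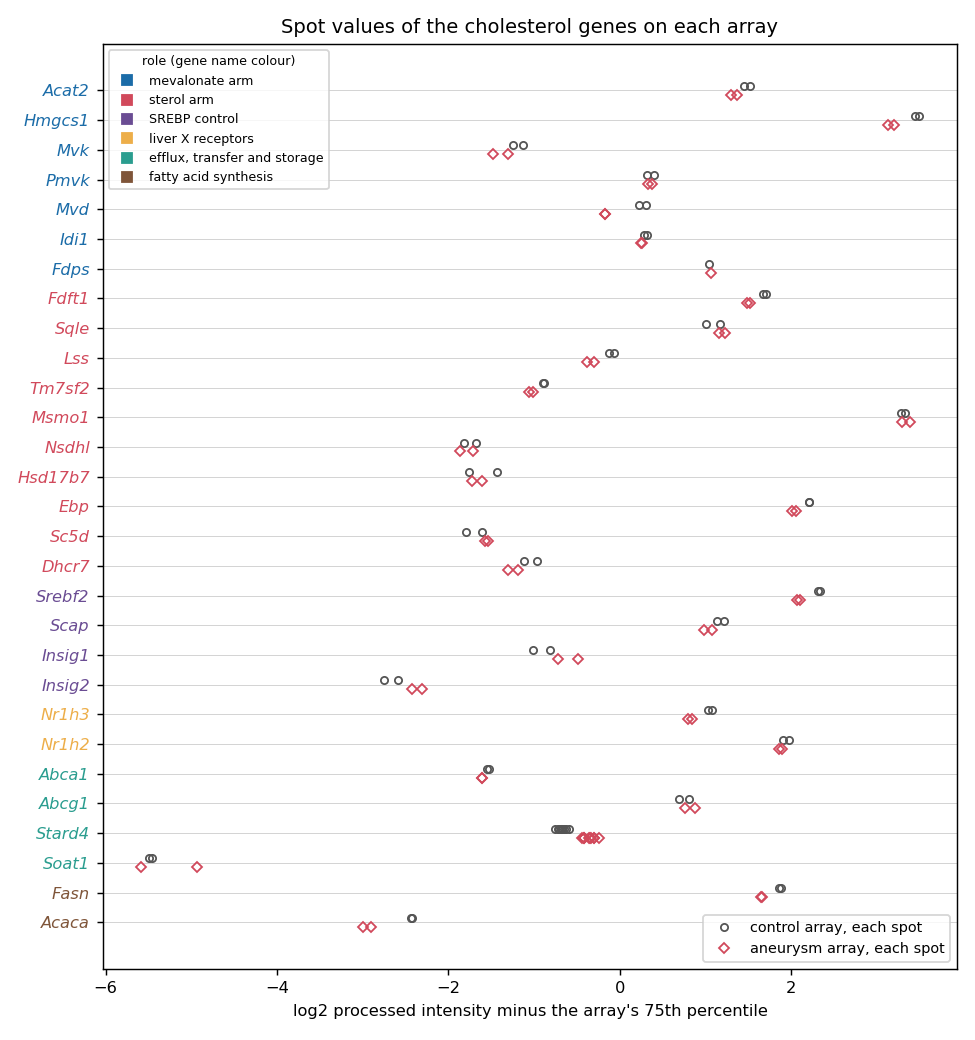
Spot values of the 29 measured cholesterol genes, as log2 processed intensity minus the array's 75th percentile, for the control array (grey circles) and the aneurysm array (red diamonds); each symbol is 1 spot and gene names are coloured by role. The symbols of both arrays lie close together for every gene, with the aneurysm spots to the left for 17 genes and to the right for Stard4, Insig1, Insig2 and Sc5d.

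In the mevalonate arm, 6 of 7 genes were lower in the aneurysm library, with a median of -0.15, and 2 of them by at least 1.2-fold. Across all measured genes, 20.6% were at least 1.2-fold lower and 18.3% at least 1.2-fold higher. The lowest value was that of Mvd, mevalonate diphosphate decarboxylase, which makes isopentenyl pyrophosphate. Its control spots read 0.23 and 0.30 and its aneurysm spots -0.17 and -0.18, a difference of -0.44 ± 0.07, or 1.35-fold higher in the control. Mvd lay at the 12.3rd percentile of all measured differences.

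Hmgcs1, the cytosolic HMG-CoA synthase that starts the committed part of the pathway, read 3.48 and 3.44 in the control and 3.12 and 3.20 in the aneurysm library. Its difference was -0.30 ± 0.05, at the 18.1st percentile. Mvd and Hmgcs1 were the genes of the arm whose spots were farthest apart between the arrays. Mvk, mevalonate kinase, was at -1.18 in the control against -1.39 (-0.20 ± 0.09). Acat2, which joins acetyl-CoA units into acetoacetyl-CoA, was at 1.48 and 1.33 (-0.15 ± 0.06).

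The other 3 enzymes of the arm did not differ beyond their spot error. Pmvk, phosphomevalonate kinase, was at 0.36 and 0.35, a difference of -0.0028 ± 0.06. Idi1, the isopentenyl pyrophosphate isomerase, was at 0.30 and 0.25 (-0.05 ± 0.06). Fdps, farnesyl pyrophosphate synthase, stood at 1.04 and 1.06 by its brighter probe, with 1 spot per array (0.02 ± 0.08). The probes of Fdps gave unlike sizes: the dimmer one, with 2 spots per array, read 0.65 and 0.55 in the control and 0.97 and 0.78 in the aneurysm library, a difference of 0.28 ± 0.06. The direction was shared, but the value of Fdps is therefore uncertain.

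In the sterol arm, 7 of 10 genes were lower and 3 higher, with a median of -0.11 and no gene at 1.2-fold. Lss, lanosterol synthase, which closes the first sterol ring system, had the lowest value. Its spots read -0.07 and -0.13 in the control and -0.39 and -0.30 in the aneurysm library (-0.24 ± 0.07, 22.0th percentile). Fdft1, squalene synthase, stands at the entry of the arm and differed by -0.19 ± 0.06, its aneurysm spots below its control spots. Dhcr7, a reductase that can make the last step to cholesterol, was at -1.04 and -1.25 (-0.20 ± 0.09), and the sterol isomerase gene Ebp was at 2.20 and 2.03 (-0.18 ± 0.06). Lss, Fdft1, Dhcr7 and Ebp were the genes of this arm that were lower by over 2 spot errors.

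The remaining genes of the arm differed by less than 2 spot errors, a grouping by value and not by step of the pathway. Tm7sf2, a sterol reductase, differed by -0.15 ± 0.09, with its aneurysm spots below its control spots. Nsdhl and Hsd17b7, which act in the removal of methyl groups from sterols, differed by -0.04 ± 0.12 and -0.07 ± 0.12, and the spots of both overlapped. Msmo1, the sterol methyl oxidase, was at 3.27 and 3.32 in the control against 3.30 and 3.38 (0.04 ± 0.05). Its spots overlapped too. Sqle, squalene epoxidase, a rate-controlling enzyme of the arm, was at 1.08 in the control against 1.19 (0.11 ± 0.06), and Sc5d, the sterol desaturase, differed by 0.15 ± 0.11. The value of Sc5d was 0.09 with normexp and 0.02 with normexp on raw spot signals. No gene of the arm was higher by over 2 spot errors. Over both arms, 13 of 17 synthesis genes were lower and 8 of them by over 2 spot errors, with a median of -0.15 that became 0.12 with spike-in scaling.

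**Figure D2:**
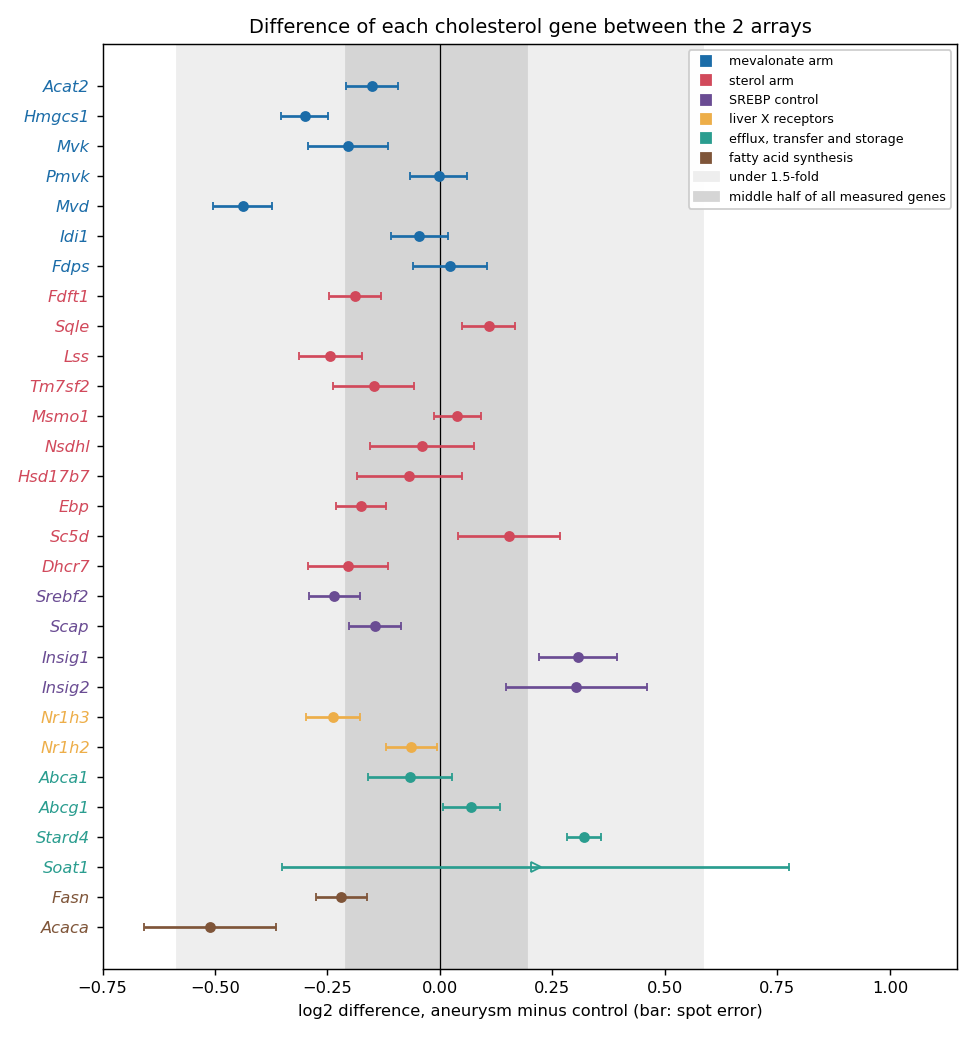
Difference of each of the 29 cholesterol genes between the aneurysm and the control array (log2, horizontal axis), with the spot error as a bar and colours by role; the triangle of Soat1 is a bound. The darker band spans the interquartile range of all 11902 measured genes (-0.21 to 0.19) and the lighter band marks differences under 1.5-fold, and every point lies inside the lighter band.

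The genes that control SREBP differed in opposite directions. Srebf2, which encodes the factor most tied to cholesterol synthesis, read 2.31 and 2.33 in the control and 2.07 and 2.10 in the aneurysm library (-0.23 ± 0.06, 22.8th percentile). Scap, the SREBP escort, was at 1.17 and 1.02 (-0.14 ± 0.06). The aneurysm spots of both genes lay below their control spots. With spike-in scaling the values were 0.03 for Srebf2 and 0.12 for Scap.

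Both Insig genes were higher in the aneurysm library. Insig1, itself an SREBP target whose protein retains SREBP in the endoplasmic reticulum, read -1.01 and -0.82 in the control and -0.72 and -0.49 in the aneurysm library. Its difference was 0.31 ± 0.09, or 1.24-fold, at the 85.0th percentile. Insig2, which acts like Insig1 but is not an SREBP target in the same way, read -2.59 and -2.75 in the control and -2.42 and -2.31 in the aneurysm library (0.30 ± 0.16, 1.23-fold). No spot of either gene overlapped between the arrays, but Insig2 was a dim gene, and with normexp background correction its value was 0.14, against 0.26 for Insig1, and with normexp on raw spot signals 0.08 against 0.23. The median of the 4 genes, 0.08, turned to -0.04 with normexp on raw spot signals.

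The promoters of 2 of the lowest and 2 of the highest members are shown, because genes on both sides of 0 carry the boxes found in this pathway's promoters. They are the 250 bases before the RefSeq gene start on build GRCr8, 5′ to 3′ on the gene's strand, and were taken from the members with the lowest and highest differences that had an entry. Capitals mark the letters CCAAT, the NF-Y box, and GGGCGG, the Sp1 box, searched on both strands, so that some stand as the reverse complement. The windows are chr19:67414975-67415224 (minus strand) for Mvd, chr2:53382054-53382303 (plus strand) for Hmgcs1, chr4:8057770-8058019 (minus strand) for Insig1 and chr13:35040099-35040348 (minus strand) for Insig2.
Mvd: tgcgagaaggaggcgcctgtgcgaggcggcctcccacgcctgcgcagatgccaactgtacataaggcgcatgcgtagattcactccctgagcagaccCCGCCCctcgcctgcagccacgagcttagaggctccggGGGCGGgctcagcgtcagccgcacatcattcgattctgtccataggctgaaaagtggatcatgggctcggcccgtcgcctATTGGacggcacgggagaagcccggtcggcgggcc
Hmgcs1: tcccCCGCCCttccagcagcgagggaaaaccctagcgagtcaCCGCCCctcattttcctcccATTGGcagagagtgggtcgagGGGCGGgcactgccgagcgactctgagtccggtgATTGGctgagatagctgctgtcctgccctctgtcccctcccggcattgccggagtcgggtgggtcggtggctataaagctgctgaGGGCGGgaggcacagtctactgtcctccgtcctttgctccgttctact
Insig1: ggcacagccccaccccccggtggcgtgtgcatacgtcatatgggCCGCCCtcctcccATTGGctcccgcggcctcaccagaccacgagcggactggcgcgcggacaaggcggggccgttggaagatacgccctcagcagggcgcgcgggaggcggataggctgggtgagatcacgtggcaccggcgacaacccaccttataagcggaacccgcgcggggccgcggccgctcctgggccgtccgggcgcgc
Insig2: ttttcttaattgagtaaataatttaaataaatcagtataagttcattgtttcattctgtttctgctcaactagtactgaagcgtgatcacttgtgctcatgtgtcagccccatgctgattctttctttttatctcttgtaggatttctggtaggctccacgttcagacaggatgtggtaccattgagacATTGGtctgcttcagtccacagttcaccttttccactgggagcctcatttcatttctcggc

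A window was listed for 23 of the 30 genes and not for Acaca, Pmvk, Fdft1, Sqle, Stard4, Abcg1 and Fasn. CCAAT was found in 17 of the 23 windows, where 34.0% of 33469 windows of the same length held it, and GGGCGG in 18, where 30.5% did. The sterol regulatory element, searched as TCACNCCAC on both strands, was in 0 of the 23 windows and in 0.974% of all windows. At so low a share, 0 of 23 does not set these genes apart. Other forms of the element and sites outside the windows were not searched, so the count does not show that these genes lack one. Matches of different motifs did not overlap each other in the printed windows. Among the 16 genes with CCAAT that had a difference, 10 were lower and 6 higher, and the windows of Mvd and Insig1 each held CCAAT once. All 6 measured genes without CCAAT, which were Acat2, Dhcr7, Scap, Nr1h3, Nr1h2 and Abca1, had negative values, against 49.8% of all measured genes. With spike-in scaling all 6 were above 0, from 0.03 for Nr1h3 to 0.21 for Nr1h2. Of the genes with GGGCGG, 12 were lower and 5 higher, and of those without it 4 were lower and 1 higher. Whether either box goes with a direction was not tested. A match is a description of letters and shows no binding.

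Of the liver X receptor genes, both were lower. Nr1h3, LXR alpha, which macrophages and liver express, read 1.03 and 1.07 in the control and 0.79 and 0.84 in the aneurysm library (-0.24 ± 0.06, 22.6th percentile; 0.03 with spike-in scaling). Nr1h2, the widely expressed LXR beta, was at 1.94 and 1.87 (-0.06 ± 0.06). The spots of neither gene overlapped between the arrays, and the difference of Nr1h2 was about the size of its spot error.

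Their efflux targets hardly differed. Abca1, the pump that loads cholesterol onto lipid-poor apolipoprotein, read -1.53 and -1.55 in the control and -1.60 and -1.61 in the aneurysm library (-0.07 ± 0.09). Abcg1, which exports sterol to HDL, read 0.69 and 0.80 in the control and 0.76 and 0.87 in the aneurysm library (0.07 ± 0.06). The Abca1 spots were apart by a small step, and those of Abcg1 overlapped. These genes lay at the 41.0th and 59.7th percentiles. The 8 macrophage markers measured beside them had a median of 0.21, with 7 of 8 higher, and summed levels of 44.9 and 51.4.

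Stard4, a soluble carrier of cholesterol between membranes, had the highest value of all 29 genes and the best spot coverage. Its 10 control spots ran from -0.76 to -0.60 and its 10 aneurysm spots from -0.44 to -0.25. The ranges did not meet, and the difference was 0.32 ± 0.04, or 1.25-fold, at the 86.1st percentile. Its other probe, with 1 dim spot per array, gave 0.26 ± 0.70. Soat1, which esterifies cholesterol for storage in foam cells, was near the floor: its control spots (-5.49 and -5.45) were not well above background, and its aneurysm spots read -5.58 and -4.93. The value of Soat1, at least 1.16-fold higher, is a bound equal to the measured difference (0.21 ± 0.56) and not a strict limit, and with normexp correction no bound was possible.

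The 2 genes of fatty acid synthesis were both lower. Acaca, acetyl-CoA carboxylase 1, the committed step, read -2.44 and -2.43 in the control and -2.99 and -2.90 in the aneurysm library. Its difference of -0.51 ± 0.15 was the lowest of the 29 genes, 1.43-fold higher in the control. Fasn, the fatty acid synthase, read 1.88 and 1.86 in the control and 1.65 and 1.66 in the aneurysm library (-0.22 ± 0.06, 24.0th percentile). Acaca remained below 0 with spike-in scaling, at -0.24, whereas Fasn was then at 0.05.

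Other genes of the pathway outside the 30 were described from 6 lists, of which up to 4 genes are named, taken from those with the largest differences. Of 66 such genes with a value, 30 were higher and 36 lower, with a median of -0.04. With spike-in scaling the medians of the 5 lists other than that of liver lay between 0.15 and 0.41. In the list of other synthesis genes, 2 of 6 were higher and 4 lower. Cyp51, the lanosterol demethylase, with 10 spots per array, differed by -0.22 ± 0.03, or 0.05 with spike-in scaling. Erg28, with 1 spot per array, differed by 0.29 ± 0.20 and Ggps1 by -0.15 ± 0.14 (0.12 with spike-in scaling).

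Uptake and lysosomal release genes had a median of 0.07, with 7 of 11 higher. Scarb2, a lysosomal membrane protein, differed by 0.51 ± 0.16 (0.29 with normexp), Mylip, a ubiquitin ligase and LXR target, by 0.28 ± 0.08, and the large receptor gene Lrp1 by 0.18 ± 0.06.

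Genes of SREBP processing and sterol sensing had 8 of 10 values above 0 and a median of 0.14, which was -0.03 with normexp. Ubxn8 differed by 0.36 ± 0.12 (1 spot per array), and Erlin2 by -0.30 ± 0.16. Erlin1, a partner of Erlin2 in a cholesterol-binding complex of the endoplasmic reticulum, differed by 0.27 ± 0.05 over 10 spots, but the mean over its probes was -0.07. No gene of this list reached 1.5-fold.

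Other fatty acid synthesis genes had a median of -0.04, with 9 of 14 lower. Thrsp, a lipogenic regulator abundant in liver and fat, was lowest at -0.92 ± 0.15. Gpam, the first enzyme of glycerolipid synthesis, differed by -0.50 ± 0.39, and Scd, stearoyl-CoA desaturase, by -0.44 ± 0.09. Acacb, the sister gene of Acaca, had 0.39 ± 0.56 and turned to -0.12 with normexp. None of the 4 matched adipocyte markers was well above background on either array.

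Genes of sterol handling in liver were the ones that differed most. All 5 with a value were lower, 2 of them at least 2-fold. Apob, the structural protein of liver lipoproteins, was at -1.92 in the control against -6.20 (-4.28 ± 0.35; -2.16 with normexp). Slc10a1, the bile acid importer of hepatocytes, was well above background in the control alone. Its value, 4.75-fold higher in the control (-2.25), is a bound equal to the measured difference and not a strict limit. It was -1.03 with normexp and -0.94 with normexp on raw spot signals. Nr0b2, a nuclear receptor that represses transcription, differed by -0.38 ± 0.17. The other 6 genes of the list, Cyp7a1, Cyp8b1, Abcg5, Abcg8, Soat2 and Abcb11, were not well above background on either array.

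Against these genes, the summed level of the 17 synthesis genes was 42.7 times the 75th percentile in the control against 39.2 times in the aneurysm library, a ratio of 1.09. The summed hepatocyte markers had a ratio of 34.9 and the summed oligodendrocyte markers a ratio of 1.97. Each sum is weighted to its brightest genes. In the control these were Hmgcs1 (log2 level 3.46) and Msmo1 (3.30) for synthesis, Alb (3.82) for hepatocytes and Mbp (7.26) for oligodendrocytes. The median differences of these lists were -0.15, -4.90 and -1.13. None of the 28 genes measured on both arrays, of the 30 described, differed by more than the 1.43-fold of Acaca.

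**Figure D3:**
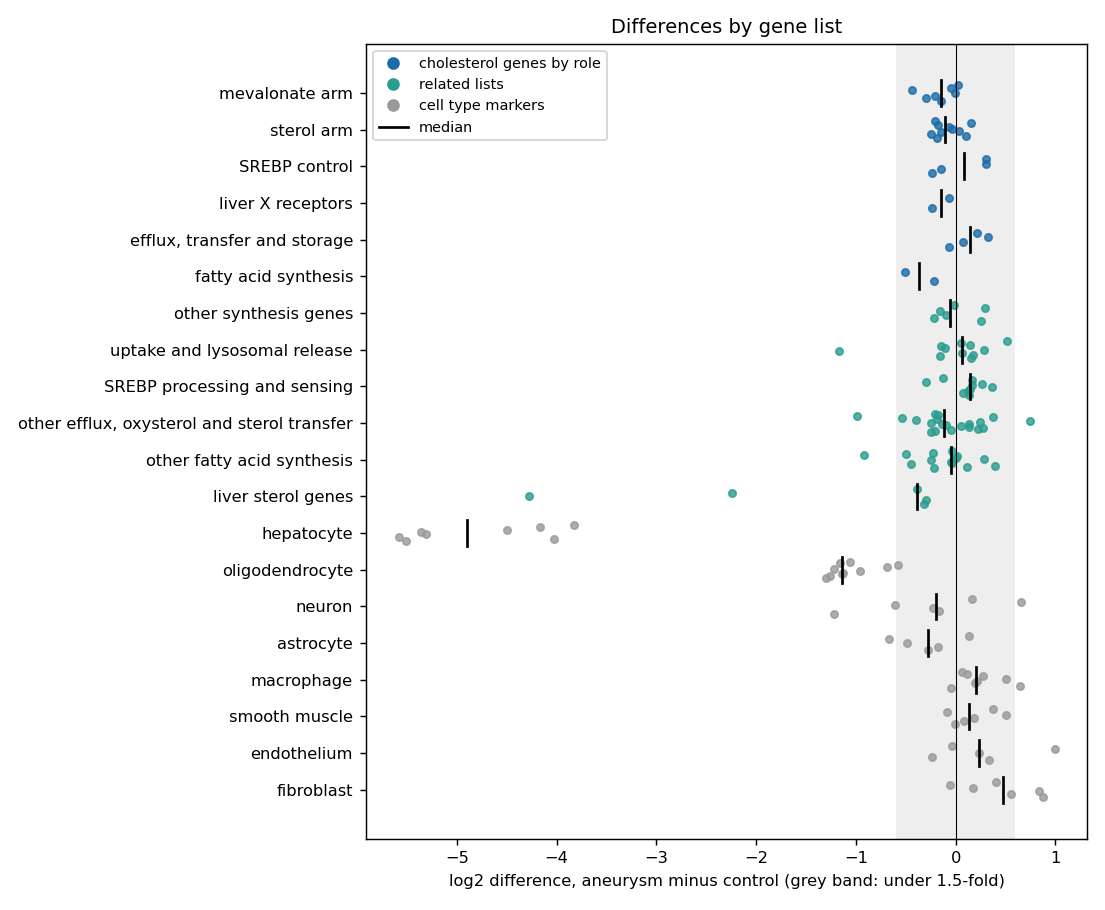
Differences of all measured genes (log2 aneurysm minus control, 1 point per gene) by list: the cholesterol genes by role (blue), related lists (green) and cell type markers (grey), with the list median as a black bar and a grey band under 1.5-fold. All cholesterol genes lie in the band, whereas hepatocyte markers (median -4.90), oligodendrocyte markers (median -1.13), Apob and Slc10a1 lie to its left.

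**Figure D4:**
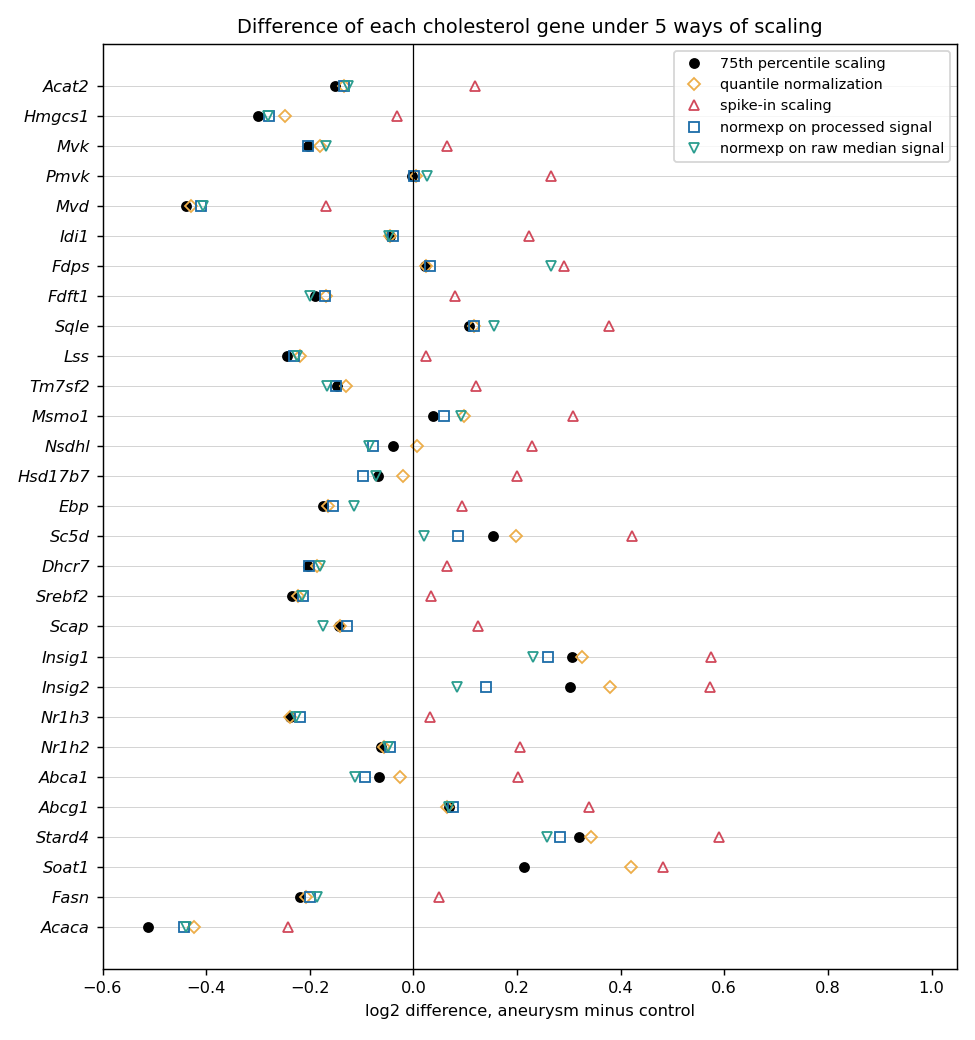
Difference of each cholesterol gene (log2 aneurysm minus control) under 5 ways of scaling or background correction. Spike-in scaling (red triangles) lies about 0.27 to the right of the 75th percentile scale (black) for every gene, which puts 26 of 29 genes above 0; other settings moved Soat1 (0.21 to 0.42 with quantile normalization), Insig2 (0.30 to 0.08) and Sc5d (0.15 to 0.02), both with normexp on raw spot signals, and Fdps (0.02 to 0.26 there, by its other probe).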

How the data were processed

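Per the file headers, the authors deposited scanner tables from Feature Extraction 10.10.1.1, with a processed intensity per spot on a linear scale. How the software treated the background is not given in these sources. Both arrays have 62976 spots, 58717 of them non-control spots of 30367 probes. Log2 intensities were centred on each array's 75th percentile (621 in the control, 801 in the aneurysm library). Outlier spots (484 and 573) were left out and spots of a probe averaged. The brightest probe with a signal well above background on 1 array or both stood for its gene, and 11902 genes then had a difference or bound. The spot error came from the spot SD pooled in 20 bins of signal. The code was tested on simulated arrays with known changes. The cell type markers, related lists and rule for named genes were chosen, like the 30 members, with earlier results of these data known. The rule covers all members and, of each related list, the 4 genes with the largest absolute difference, some of which are not reported here. Alternatives were other scalings, normexp (limma 3.58.1, offset 50), other filters on dim probes and other folds. The files hold no mean spot signal, so normexp ran on the processed signal, and on raw median signals as a choice made after the data were seen, as was the 1.2-fold threshold. Some marker list medians (neuron -0.20, astrocyte -0.27, smooth muscle 0.13, endothelium 0.23, fibroblast 0.48) are given here only.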

Additional observations from a re-analysis of the deposited data

How the results depend on the processing

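No paired analysis was possible because each group has 1 array, and for the same reason no array could be left out. The count of 0 genes at 1.5-fold held in both directions under all alternatives except spike-in scaling. On that scale 1 of 29 genes, Stard4, was at least 1.5-fold higher, against 14.2% of all genes. With normexp, 0.985% of all genes were at least 1.5-fold higher and 4.86% lower, so a count of 0 says little there. With a 1.2-fold threshold, added after the data were seen, 3 genes were higher and 3 lower, against 18.3% and 20.6% of all measured genes. The median of the 29 genes lay between -0.11 and -0.04 without spike-in scaling and was 0.20 with it, when 26 genes were above 0 and 3 below. Relative to the median of all genes, the member median lay between -0.11 and -0.02 under all alternatives. Of the 28 genes with a value under every alternative (Soat1 had none with normexp or where both arrays had to be well above background), 26 kept their sign under those other than spike-in scaling, 18 lower and 8 higher; Pmvk and Nsdhl did not. With spike-in scaling included, 11 kept it. The cause of the difference between the scalings was not tested. With normexp on raw median signals, 6 genes moved by over 1 spot error, among them Fdps (0.26, by its other probe). Signal over background limits dim genes such as Soat1, which had no bound with normexp, and Insig2. Leaving out spots other than outliers was not run.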

Other observations

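Genes of oxysterol handling and sterol transfer outside the 30 were mixed in direction. Of 20 with a value, 8 were higher and 12 lower in the aneurysm library, with a median of -0.12 that turned to 0.02 after quantile normalization and to 0.15 on the spike-in scale. At 1.5-fold, 1 was higher and 1 lower, against 4.25% and 8.43% of all measured genes. Osbpl5, a sterol-binding protein of membrane contacts, differed by 0.75 ± 0.26, or 0.30 with normexp. Nr1h4, the bile acid receptor FXR, measured by 1 spot per array, differed by -0.99 ± 0.27, and by -0.02 as the mean over its probes. Gramd1b, which carries cholesterol from the plasma membrane to the endoplasmic reticulum, differed by -0.54 ± 0.12 and Osbpl6 by -0.40 ± 0.19. Apoe, named outside the rule as a cholesterol carrier of macrophages, astrocytes and liver, differed by -0.25 ± 0.05. Its sign was not stable: the value was 0.06 after quantile normalization and 0.02 with spike-in scaling.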
